A study of Mus musculus with 12 samples.

Results

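The cytosolic ribosomal protein genes are the 49 genes on the array whose symbol begins with Rpl or Rps followed by a digit, or with Rplp followed by a digit, leaving out the Rps6k kinase genes and Rps27l. They were read by 102 probe sets that name a single gene, out of 45037 probe sets on the array, and make up 49 of the 18193 genes tested. Of the 49, 2 encode proteins of the ribosomal stalk, 20 encode proteins of the large subunit and 20 encode proteins of the small subunit; these 42 are called core subunit genes here. A further 4 (Rpl3l, Rpl7l1, Rpl22l1, Rpl39l) encode paralogues, and 3 (Rps19bp1, Rps4l, Rps15a-ps6) were taken by their symbols although they encode no ribosomal protein: Rps19bp1 encodes a binding partner of Rps19, and the other two are transcribed pseudogenes.

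Neural stem cells were sorted by flow cytometry from the subventricular zone, the germinal niche beside the lateral ventricle, of adult male C57B6J mice, and their amplified RNA was hybridised to Affymetrix MOE 430 2.0 arrays. The labels describe 12 samples in 3 groups of 4: quiescent stem cells, quiescent stem cells taken 48 h after irradiation, and activated stem cells; neither the quiescent nor the activated group carries an irradiation label, and no genetic change is named for any group. Quiescent replicate 3 and activated replicate 4 were not analysed here, which left 10 arrays: 3 quiescent, 4 irradiated and 3 activated. The sources used here do not give the radiation dose, the sorting markers, the exact age or the number of mice per sample, and nothing says that replicates came from separate animals, so p-values measure the spread between these samples only. Each group is a bulk population defined by its sort, and in such samples fewer cells of a type and less RNA per cell cannot be told apart.

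A ribosome is built from ribosomal RNA and a fixed set of proteins, most of them present once per particle, and it translates messenger RNA into protein. The messages of nearly all these proteins start with a run of pyrimidines (C and T in the gene, C and U in the RNA) called a terminal oligopyrimidine tract, or TOP motif, through which mTORC1 signalling and the RNA-binding protein Larp1 control their translation. In the adult subventricular zone, quiescent stem cells are known for a low rate of protein synthesis, which increases when they are activated and begin to divide.

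The sequences around the gene starts show what the family shares beyond its name. RefSeq (mouse build GRCm38.p6) gave a promoter window for 37 of the 42 core subunit genes and for 17492 protein-coding genes in all; where a gene had several windows, the first one listed was used. The stretches printed here are 30 bases of the coding strand, 5′ to 3′, with the longest unbroken run of C or T within 50 bases of the annotated start in capitals. They are shown for members with large differences between the groups (Rpl22, Rps19, Rplp0, Rpl27a, Rps26, Rpl22l1), for members whose irradiated arrays lay apart from the quiescent ones (Rpl11, Rps7), for the member with the longest run (Rpl7a) and for a called member with only a short run (Rps28).
Rpl22, chr4:152325679-152325708, + strand: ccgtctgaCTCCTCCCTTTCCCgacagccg
Rps19, chr7:24884612-24884641, + strand: cgcccgggaaaccccgtcgTTCCCTTTCCC
Rplp0, chr5:115559467-115559496, + strand: ggaccgcctggTTCTCCTataaaaggcaca
Rpl27a, chr7:109519186-109519215, + strand: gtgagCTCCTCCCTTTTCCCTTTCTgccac
Rps26, chr10:128626484-128626513, - strand: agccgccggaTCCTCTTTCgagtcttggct
Rpl22l1, chr3:28805499-28805528, + strand: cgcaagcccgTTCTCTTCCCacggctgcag
Rpl11, chr4:136053357-136053386, - strand: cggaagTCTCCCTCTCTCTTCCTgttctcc
Rps7, chr12:28635910-28635939, - strand: tgtccccaCCTCTTTTCTTCCgccacccgg
Rpl7a, chr2:26910789-26910818, + strand: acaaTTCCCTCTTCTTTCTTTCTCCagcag
Rps28, chr17:33824566-33824595, - strand: ctgtcccgaggaTTCCTgggtaccgcgtgc
The runs ranged from 5 to 21 bases over the core subunit genes that could be printed, and none of them began exactly at the annotated start. That of Rpl27a begins 4 bases upstream of it, that of Rps26 begins 3 bases downstream, and that of Rpl22 begins 39 bases upstream. The run of Rps19 begins 39 bases downstream and reaches the end of the window. Whether a longest run is the TOP motif of its message was not tested.

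A run of at least 8 pyrimidines was present in 30 of 37 core subunit genes (81.1%) and in 35.3% of all protein-coding genes. A run of at least 8 purines (A or G) in the same window was present in 9 of 37 (24.3%) and in 36.1%. Long purine runs were thus less frequent in the core subunit genes, the reverse of long pyrimidine runs. The median longest pyrimidine run was 11 bases in the core subunit genes and 6 in all genes. In the whole 300-base window, on either strand, the letters CCGGAA, the core that factors of the ETS family bind, were found in 22 of 37 (59.5%) against 19.1% of all genes. The letters AAGATGG, part of the YY1 motif, were found in 6 of 37 (16.2%) against 6.37%, and TATAAA, the TATA box, in 4 of 37 (10.8%) against 13.3%. CCGGAA and AAGATGG can share bases where they adjoin, and a match describes letters in a window, not a bound site. Among the core subunit genes that passed the test in activated cells, 15 of 21 had a run of at least 8 pyrimidines, and among those that did not pass it, 15 of 16 did.

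**Figure D1:**
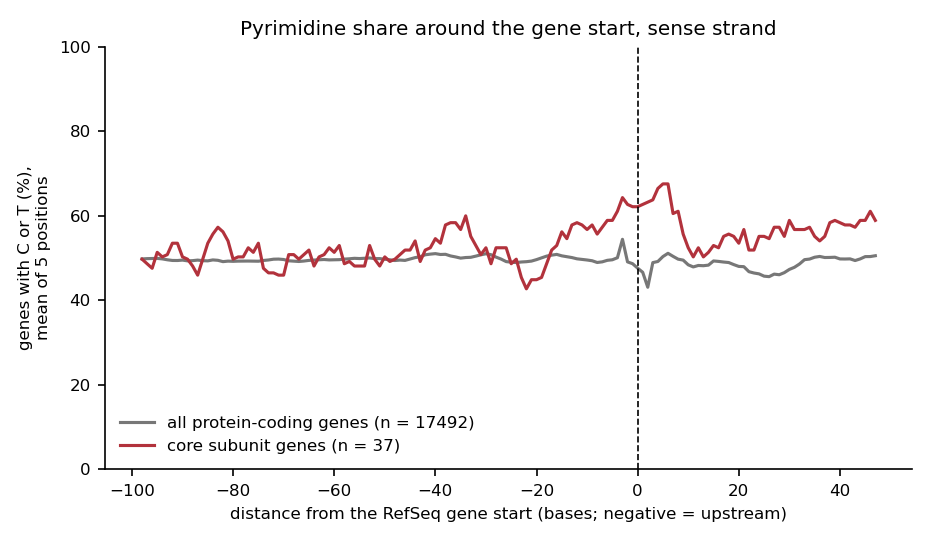
Share of genes with C or T at each base around the RefSeq gene start (percent, mean of 5 neighbouring positions), for the 37 core subunit genes and for 17492 protein-coding genes. Over the first 20 bases from the start the mean share was 57.8% in the core subunit genes and 47.7% in all genes, while over 20 bases lying from 70 to 51 bases upstream it was 50.7% and 49.6%.

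Over all arrays the deposited intensities ran from 3 to 34883, and between 56.6% and 59.2% of probe sets had a value of 10 or less. The 75th percentile of all probe sets lay between 83 and 104 on the 10 arrays, with no array standing apart. Between activated and quiescent cells, astroglial markers shared with quiescent stem cells (6 of 8 lower in activated cells) and markers of activated or dividing cells (6 of 7 higher) matched the group labels. Other cells' markers moved with the groups as well: 3 of 5 oligodendrocyte genes and 1 of 6 choroid plexus genes (Ttr) were lower in activated cells, 1 of 5 ependymal genes (Rarres2) was lower, 2 of 5 neuroblast genes were higher, and none of 6 mature neuron, 6 endothelial or 7 microglial genes passed the test in that comparison. Against irradiated cells the calls also included the neuron gene Ppp1r1b, lower in activated cells, and 3 of 5 neuroblast genes, higher. Many of these markers were dim. An intensity of 100 on at least 1 array was reached by 1 of 5 ependymal, 3 of 6 choroid plexus, 4 of 6 endothelial and 3 of 7 microglial genes. The summed oligodendrocyte markers lay between 15893 and 26289 on the quiescent and irradiated arrays and between 1730 and 5128 on the activated arrays. The summed choroid plexus markers, nearly all from Ttr, lay between 10048 and 20139 and between 37 and 128; of the other choroid plexus genes, Folr1 was at 5 on every array. The summed neuroblast markers lay between 149 and 1823 on the quiescent and irradiated arrays and between 13789 and 16406 on the activated arrays. The summed neuron markers were 14287 on quiescent replicate 1 and at most 3996 on any other array, and the summed microglial markers were 4393 on activated replicate 3, 2661 on irradiated replicate 3 and at most 1084 elsewhere. The part of these other cells in the differences described here was not tested.

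Most ribosomal protein genes gave higher intensities in activated than in quiescent stem cells. Of the 49 genes, 25 were called higher (51%) and 0 lower, in a test that called 2.9% of all 18193 genes higher and 3.12% lower. The test was limma on log2(intensity + 16), with a call at a Benjamini-Hochberg adjusted p under 0.05 over all genes. The median difference was 1.64 on that log2 scale, where the median of all genes was 0. On 36 of the 49, every activated array lay above every quiescent array, against 9.84% of all genes. An unadjusted p under 0.05 with a higher activated mean was found for 36 of 49, against 8.12%, and a lower one for 0. The shares over all genes include 5767 of 18193 genes that read at most 10 on every array. Brighter genes were called more often. Of the 4232 genes that reached 1000 on at least 1 array, activated arrays included, 6.71% were called higher. Of the 725 that reached 5000, 12.7% were.

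Of the 42 core subunit genes, 24 were called higher and 35 had all activated arrays above all quiescent arrays, with a median difference of 1.74. The 18 without a call include 7 genes (Rpl12, Rpl14, Rpl37, Rpl39, Rps16, Rps25, Rps27) that stayed under an intensity of 1000 on every array through their own probe set. Another 33 reached 1000 on a quiescent or irradiated array, and Rps19 and Rps6 did so on activated arrays only. By role, the count was 1 of 2 stalk genes, 11 of 20 large subunit genes (median 1.83), 12 of 20 small subunit genes (median 1.57), 1 of 4 paralogues and 0 of the 3 genes that encode no ribosomal protein. The number of calls depended on the activated replicates: it was 16, 15 and 16 without activated replicate 1, 2 and 3, and it was 9 when only the quiescent and activated arrays entered the fit. The median difference stayed between 1.45 and 1.87 in all 21 alternative settings.

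**Figure D2:**
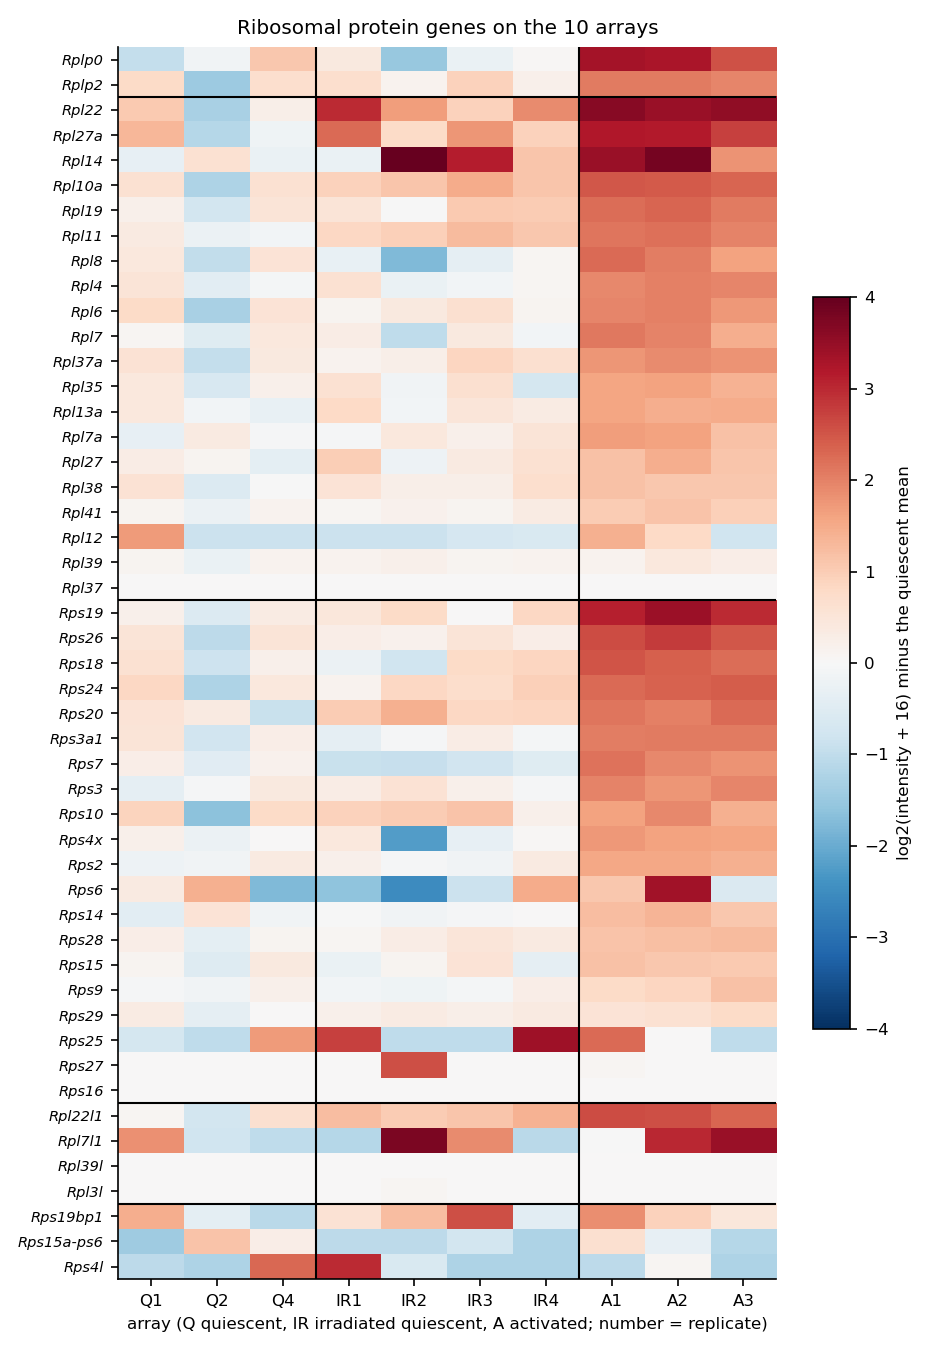
Each row is 1 of the 49 genes and each column 1 of the 10 arrays; the colour gives log2(intensity + 16) minus the mean of the 3 quiescent arrays, with the colour scale ending at 4 in either direction. Most rows are red on the 3 activated arrays and pale on the irradiated arrays, and quiescent replicate 2 is blue in many rows.

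Over the 42 core subunit genes the activated arrays lay apart from the other arrays. The median of their log2 differences from the quiescent mean was 1.84, 1.91 and 1.53 on activated replicates 1, 2 and 3. It was 0.31, -0.43 and 0.18 on quiescent replicates 1, 2 and 4, and 0.20, 0.13, 0.28 and 0.29 on irradiated replicates 1 to 4. Quiescent replicate 2 stood below the other quiescent arrays: it alone held the lowest quiescent value for 28 of the 42 genes. The summed intensity of the 42 genes was 1.48% of the summed intensity of all genes on that array, 2.33% and 2.19% on the other quiescent arrays, 2.25% to 2.52% on the irradiated arrays and 5.87% to 6.09% on the activated arrays. The median coefficient of variation (SD over mean) per gene was 9.09% over the 3 activated arrays, 35.9% over the 3 quiescent arrays and 24.3% over the 4 irradiated arrays.

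The stalk is the flexible arm of the large subunit that recruits translation factors, and Rplp0 is its anchor. The Rplp0 intensity was 508, 906 and 2136 on the quiescent arrays, 1298, 337, 819 and 1023 on the irradiated arrays and 10105, 9818 and 5915 on the activated arrays. The activated values lay above all others, and the quiescent and irradiated values overlapped. The group means were 1183 ± 849 (SD, n = 3) in quiescent and 8613 ± 2341 (n = 3) in activated cells, a log2 difference of 3.05 ± 0.64 (SE; limma adjusted p = 0.034). Without activated replicate 2 the adjusted p was 0.112. Rplp2, which binds the stalk as a dimer with Rplp1, read 10697, 2256 and 10022 on the quiescent arrays and 26243, 26523 and 24257 on the activated arrays. Its arrays also separated, with quiescent replicate 2 far below the other two, and its difference of 2.04 ± 0.57 did not pass the test (limma adjusted p = 0.101).

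Among the large subunit genes, Rpl22 had the largest difference. Rpl22 is not needed for translation in general and is best known from lymphocyte development. It read 1928, 365 and 1077 on the quiescent arrays, 7431, 2976, 1746 and 3423 on the irradiated arrays and 11533, 10138 and 10891 on the activated arrays. The activated arrays were highest and close together, and the irradiated ones lay between, overlapping the quiescent ones. The means were 1123 ± 783 in quiescent and 10854 ± 698 in activated cells (SD, n = 3 each), and the log2 difference was 3.54 ± 0.68 (limma adjusted p = 0.023); the call was lost without any 1 of 4 arrays, with an adjusted p of 0.072 without activated replicate 2. Its paralogue Rpl22l1, which can take the place of Rpl22 in the ribosome, read 701, 388 and 1042, then 1574, 1348, 1436 and 1739, then 4055, 4045 and 3344 in the same order of groups. For Rpl22l1 no group overlapped another. The means were 710 ± 327, 1524 ± 171 (n = 4) and 3815 ± 408, with an activated minus quiescent difference of 2.50 ± 0.31 (limma adjusted p = 0.004). Both paralogues were called higher in activated cells.

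Rpl27a, a component of the large subunit, read 2965, 525 and 1046 on the quiescent and 10925, 10876 and 7873 on the activated arrays, a log2 difference of 3.03 ± 0.65 (limma adjusted p = 0.037; 0.117 without activated replicate 2). Rpl10a, which has been studied as a protein that only some ribosomes carry, read 3361, 931 and 3405 on the quiescent arrays and 12391, 12217 and 11249 on the activated arrays, a difference of 2.43 ± 0.47 (limma adjusted p = 0.024; 0.081 without activated replicate 2). In both genes the activated arrays lay clear of the quiescent ones. Rpl11, which together with Rpl5 can bind Mdm2 and thereby stabilise p53 when ribosome assembly fails, read 2713, 1779 and 1962 on the quiescent arrays, 3743, 4147, 5114 and 4488 on the irradiated arrays and 9418, 9864 and 8497 on the activated arrays. Rpl11 gave 3 separate tiers, with no overlap between any of the groups. Its activated minus quiescent difference was 2.12 ± 0.17 (limma adjusted p = 4.8e-04), and the call held when any 1 array was left out.

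Rpl38, known from the mouse mutant Tail short for its effect on the translation of Hox messages, read 11377, 5144 and 7427 on the quiescent and 17014, 15980 and 16048 on the activated arrays. The arrays separated, but the difference of 1.11 ± 0.27 did not pass the test (limma adjusted p = 0.059). Rpl7 read 2194, 1492 and 2776 against 9047, 8299 and 5691, a difference of 1.84 ± 0.41 (limma adjusted p = 0.044; 0.137 without activated replicate 2). Its paralogue Rpl7l1, an assembly factor of the large subunit, had no such separation: 156, 12 and 8 on the quiescent arrays and 32, 376 and 519 on the activated arrays, with a difference of 2.15 ± 1.63. Rpl41, the smallest ribosomal protein, read 12275, 9814 and 12594 on the quiescent and 23387, 25398 and 22242 on the activated arrays. Its difference of 1.04 ± 0.11 was small beside that of Rpl22 and was called with a limma adjusted p of 0.002. The other large subunit genes called higher were Rpl4, Rpl7a, Rpl13a, Rpl19 and Rpl37a, with differences from 1.49 (Rpl7a) to 2.21 (Rpl19). Rpl6, Rpl8, Rpl27 and Rpl35 had arrays that separated and differences of 1.89, 1.97, 1.25 and 1.52 without a call.

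**Figure D3:**
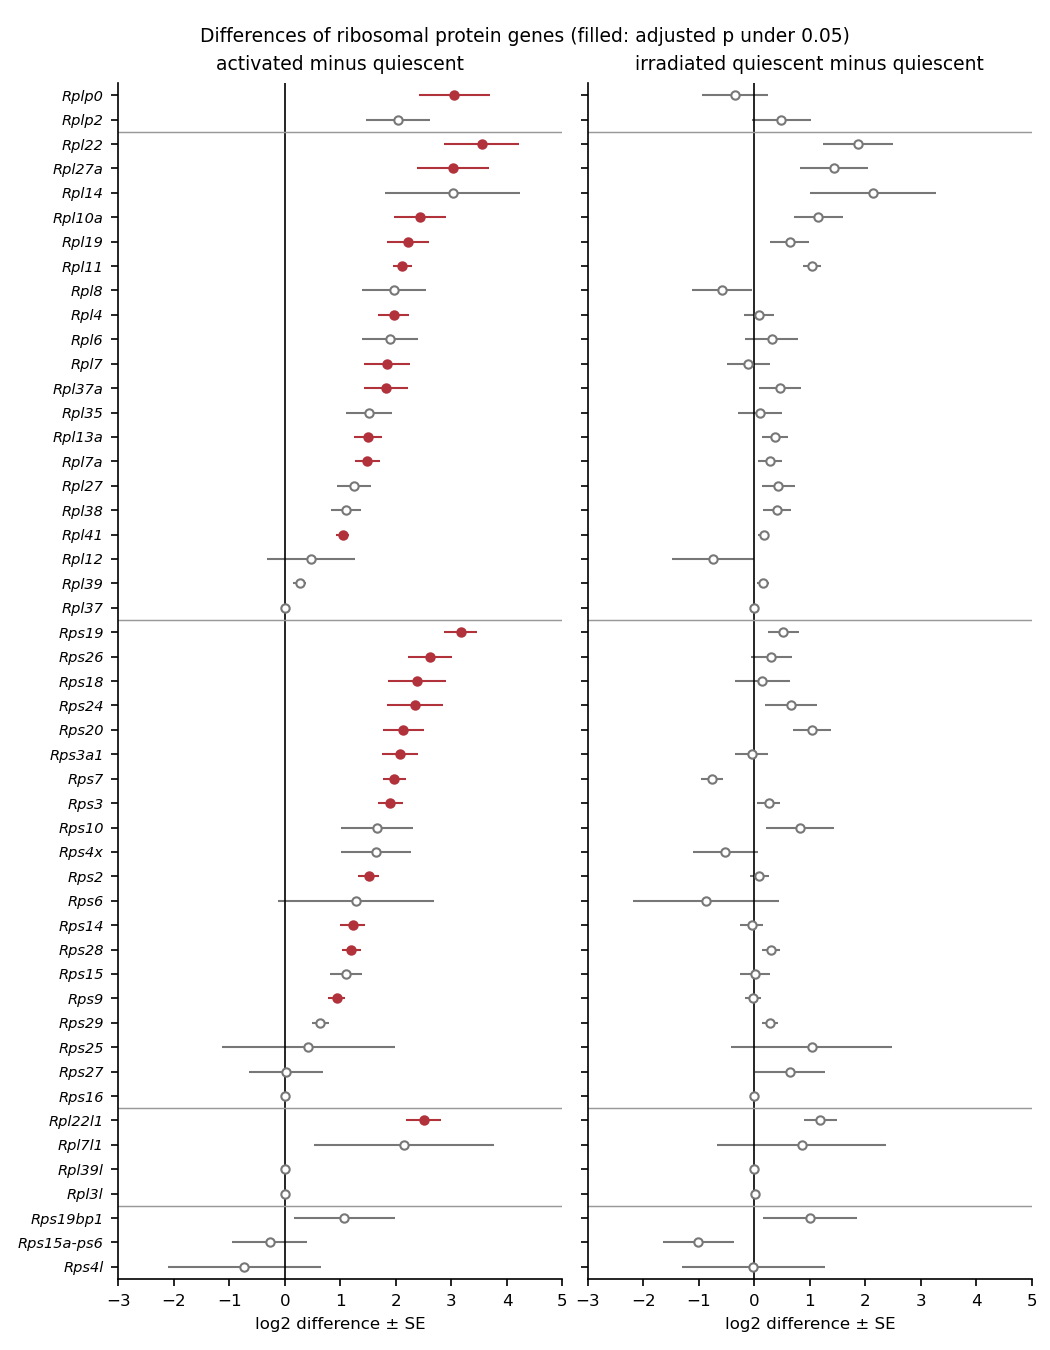
Log2 difference ± SE from limma for each of the 49 genes, activated minus quiescent and irradiated minus quiescent, filled where the adjusted p is under 0.05. In the first comparison 25 points are filled, all on the positive side, up to 3.54 for Rpl22; in the second none is filled.

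In the small subunit, Rps19, the gene most often mutated in Diamond-Blackfan anaemia, read 599, 345 and 650 on the quiescent arrays, 703, 886, 524 and 928 on the irradiated arrays and 4505, 5593 and 4203 on the activated arrays. The quiescent and irradiated values overlapped and the activated ones lay far above both. The means were 531 ± 163 and 4767 ± 731 (SD, n = 3 each) in quiescent and activated cells, a difference of 3.17 ± 0.29 (limma adjusted p = 8.6e-04) that stayed called without any 1 array. Rps26, which lies at the exit of the messenger RNA channel, read 1492, 497 and 1507 against 6382, 7256 and 5878, a difference of 2.62 ± 0.40 (limma adjusted p = 0.008). Rps3, at the entry of that channel and also known for a role in DNA repair, read 2902, 3681 and 4993 against 15079, 12836 and 14468, a difference of 1.90 ± 0.22 (limma adjusted p = 0.002). All 3 genes had activated arrays above every quiescent one.

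Rps14, a protein of the platform whose human gene is lost in the 5q- syndrome, read 3233, 6351 and 3936 on the quiescent and 10252, 11029 and 9069 on the activated arrays, a difference of 1.22 ± 0.22 (limma adjusted p = 0.019; 0.072 without activated replicate 2). Here quiescent replicate 2 was the highest quiescent array, not the lowest. Rps4x, encoded on the X chromosome, read 4321, 3162 and 3756 against 12363, 11310 and 11223, and was not called although its arrays separated (difference 1.64 ± 0.62; limma adjusted p = 0.242). Its irradiated values of 5016, 773, 2977 and 3844 held 1 low array, replicate 2, and all arrays share 1 estimate of the spread per gene. Rps29, a zinc-binding protein of the head, had a small difference of 0.64 ± 0.16 (limma adjusted p = 0.060): it read 21375, 13325 and 17333 on the quiescent and 24942, 26104 and 28785 on the activated arrays. The activated values lay near the upper end of the array's range, and how far that end limits a difference was not tested. The remaining small subunit genes called higher were Rps2, Rps3a1, Rps7, Rps9, Rps18, Rps20, Rps24 and Rps28, with differences from 0.93 (Rps9) to 2.38 (Rps18).

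**Figure D4:**
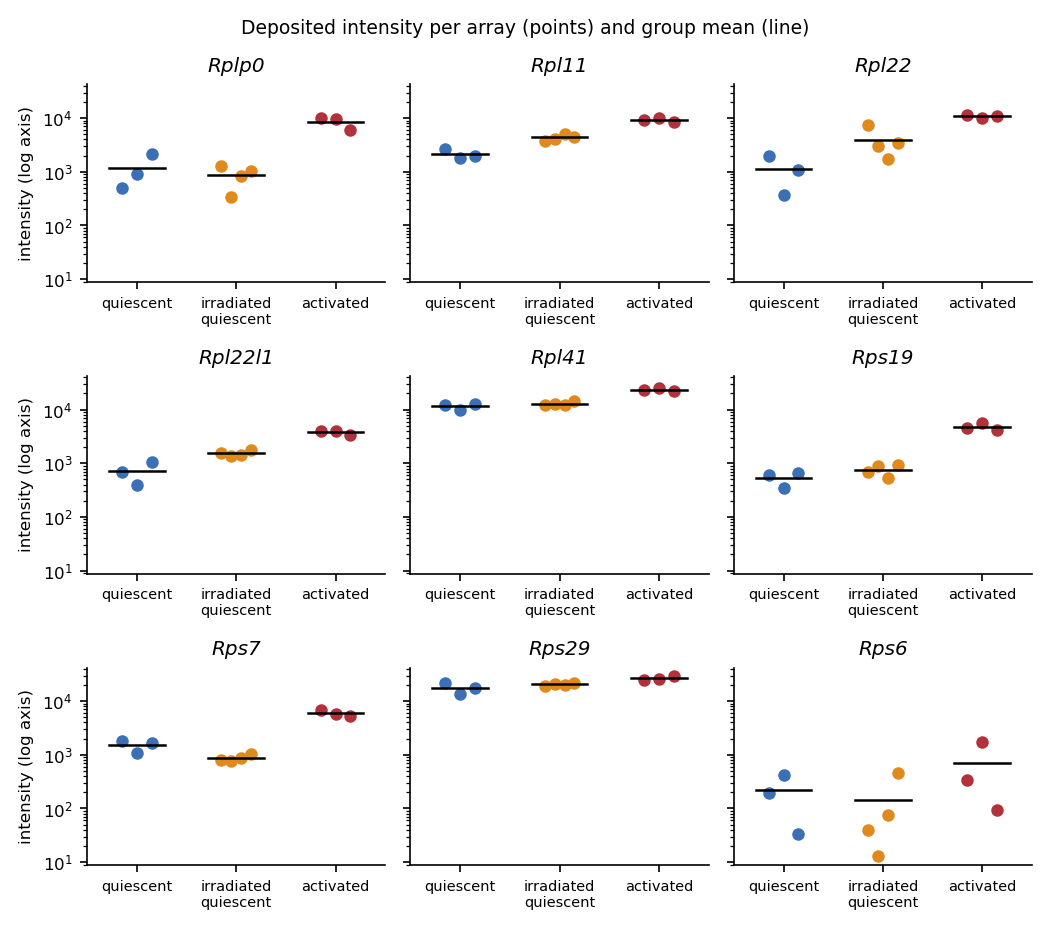
Deposited intensity on a log axis for 9 members, with 1 point per array and a line at the group mean, for 3 quiescent, 4 irradiated and 3 activated arrays. Rpl11 and Rpl22l1 form 3 tiers, Rps7 is lowest after irradiation, and Rps6 through its own probe set has no group apart from the others.

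Irradiated quiescent cells, taken at 48 h, were compared with unirradiated quiescent cells. No ribosomal protein gene was called in either direction, in a comparison in which 0.0055% of all genes (1 gene) were called higher and 0.0055% lower. The median difference of the 49 genes was 0.28 and 34 of them were above 0. Without quiescent replicate 2, the array with the lowest ribosomal protein values, the median was 0.02. At an unadjusted p under 0.05, 6 of the 49 were higher and 1 lower, against 1.95% and 2.02% of all genes.

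All 4 irradiated arrays lay above all 3 quiescent arrays for Rpl10a, Rpl11, Rps20 and Rpl22l1, and below them for Rps7, against 1.56% and 1.4% of all genes; these 5 are named because their arrays did not overlap. The 4 differences above 0 were 1.15 ± 0.44 for Rpl10a, 1.03 ± 0.16 for Rpl11, 1.04 ± 0.34 for Rps20 and 1.19 ± 0.29 for Rpl22l1, with limma adjusted p-values of 0.965, 0.378, 0.965 and 0.816. Rps7, which like Rpl11 can bind Mdm2, read 1812, 1091 and 1686 on the quiescent arrays, 805, 778, 877 and 1052 on the irradiated arrays and 6760, 5731 and 5281 on the activated arrays. Its irradiated values were the lowest of the 3 groups and close together. The means were 1530 ± 385 and 878 ± 123 (SD, n = 3 and n = 4), a difference of -0.77 ± 0.19 (limma adjusted p = 0.843). The differences of Rpl11 and Rps7 had opposite signs, and neither passed the test over all genes. Rps7 was the only 1 of the 49 genes with all irradiated arrays below all quiescent arrays. A relation of either difference to p53 was not tested. Rpl22 had a difference of 1.87 ± 0.63 with overlapping arrays (limma adjusted p = 0.965), and Rps15a-ps6 ran furthest below the family at -1.01 ± 0.63, from values of 7 to 120 on the quiescent and 10 to 21 on the irradiated arrays.

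The stalk genes and further members passed no test after irradiation either. The differences were -0.35 ± 0.60 for Rplp0, 0.48 ± 0.53 for Rplp2, 0.41 ± 0.25 for Rpl38, 0.38 ± 0.24 for Rpl13a, -0.11 ± 0.39 for Rpl7 and 0.15 ± 0.11 for Rpl39. In the small subunit they were 0.52 ± 0.27 for Rps19, -0.04 ± 0.21 for Rps14, 0.26 ± 0.21 for Rps3 and -0.52 ± 0.58 for Rps4x. Farther from 0, with wider errors, were 2.14 ± 1.14 for Rpl14, the largest difference of the 49 genes, 1.03 ± 1.45 for Rps25, -0.87 ± 1.31 for Rps6, 0.64 ± 0.63 for Rps27, 0.85 ± 1.52 for Rpl7l1 and 1.00 ± 0.85 for Rps19bp1. Rps4l was at -0.02 ± 1.29. Rpl3l at 0.02 ± 0.02 and Rpl39l at 0 lay at the array's lower limit on all arrays, so their values measure no difference. For the other genes the errors leave room for differences in either direction, so the values do not show that the genes were equal.

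Activated cells were also set against irradiated quiescent cells, a comparison that shares the activated arrays with the one against unirradiated cells. Here 20 of the 49 genes were called higher (40.8%) and 0 lower, where 3.41% of all genes were called higher and 3.69% lower. Every activated array lay above every irradiated array for 35 of 49, against 8.23% of all genes, and the median difference was 1.26. The largest called differences were those of Rplp0 (3.40 ± 0.60; limma adjusted p = 0.014), Rps7 (2.73 ± 0.19; 2.1e-04), Rps19 (2.65 ± 0.27; 0.001), Rpl8 (2.56 ± 0.54; 0.030), Rps26 (2.32 ± 0.37; 0.009) and Rps18 (2.24 ± 0.49; 0.036). Of the 20 genes, 19 were also called against unirradiated cells; Rpl8 was not. Rpl8 read 2191, 813 and 2393 on the quiescent arrays, 1325, 464, 1274 and 1702 on the irradiated arrays and 7851, 6741 and 4983 on the activated arrays. The count was 12 without activated replicate 1 and 11 without activated replicate 2. It was 13 of the 43 members still tested when the dimmest 50% of genes were left out. In that setting 1745 of 9097 genes were called in either direction, against 1292 of 18193 in the main fit.

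Several members could be read only poorly through a probe set of their own. Rpl37, Rps16 and Rpl39l were at 5 on every array, which is the array's lower limit for many probe sets, and Rpl3l, the muscle form of Rpl3, was at 5 or 6. Rps27 was at 5 or 6 on 9 arrays. These values give no level for the genes: Rpl37, Rps16 and Rps27 also had bright probe sets, which list a pseudogene or a second gene beside them. Rps25, known for its part in translation from viral internal entry sites, read 10, 5 and 122 on the quiescent and 186, 27 and 5 on the activated arrays through its own probe set, while the probe set shared with predicted genes read 5243, 2187 and 3612 on the quiescent, 3530, 4366, 6372 and 5519 on the irradiated and 17033, 15046 and 15394 on the activated arrays, a difference of 2.19 ± 0.33. The shared probe set had 3 activated arrays above all others, which its own one did not.

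Rps6, the substrate of S6 kinase whose phosphorylation is widely used to read mTORC1 activity, showed the same contrast. Through its own probe set it read 197, 427 and 33 on the quiescent arrays, 39, 13, 75 and 455 on the irradiated arrays and 337, 1698 and 95 on the activated arrays, with no separation and a difference of 1.29 ± 1.40. A probe set shared with the pseudogene Rps6-ps4 read 11959, 4666 and 12516 on the quiescent and 21992, 24006 and 21456 on the activated arrays, which separated without a call (difference 1.34 ± 0.79). Rpl39, a short protein of the exit tunnel, read 107 to 149 on the quiescent and 146 to 181 on the activated arrays through its own probe set; with shared probe sets counted, an alternative added after the data were seen, its difference was 1.18 (limma adjusted p = 0.002). Rpl14 and Rps16 gained a call in the same way, with differences of 1.77 and 1.55. Rpl12, which read at most 108, did not (1.77; limma adjusted p = 0.068).

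Probe sets that list several symbols, pseudogenes or other genes among them, gave counts close to those of single-gene probe sets. In a fit of all 45037 probe sets, 45 of the 102 single-gene probe sets (44.1%) and 50 of the 110 probe sets that list several symbols (45.5%) were higher in activated than in quiescent cells, none was lower, and 2.29% of all probe sets were higher. Against irradiated cells 32 and 39 were higher, where 2.68% of all probe sets were, and between irradiated and quiescent cells none was called. Of the 22 genes with 2 or more single-gene probe sets, 17 had differences above 0 on all of them; over their 75 probe sets, 69 differences were above 0, 3 were at 0 and 3 were below 0, the last from Rps24, Rps4x and Rps9. Rpl13a, known for its phosphorylation and release from the ribosome under interferon gamma, is given as an example of probe sets that differ in size. Its brightest probe set read 7824, 5451 and 4728 on the quiescent and 17653, 15979 and 16370 on the activated arrays (1.50 ± 0.25; limma adjusted p = 0.014), whereas another read 82, 10 and 12 against 1741, 2415 and 2372. The differences of its 4 single-gene probe sets lay above 0 and spread over 4.21 log2 units.

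**Figure D5:**
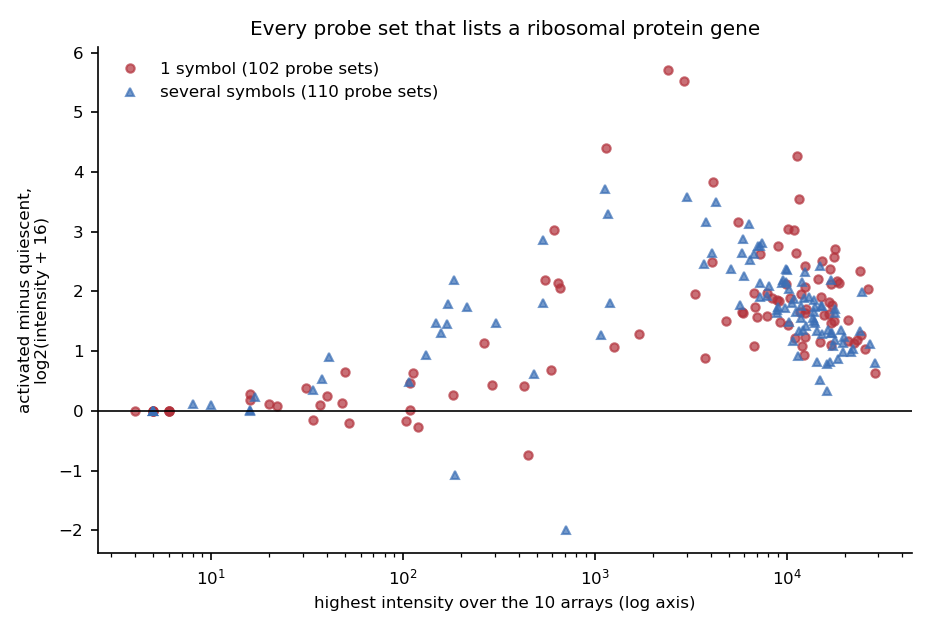
Activated minus quiescent difference on the log2(intensity + 16) scale against the highest intensity over the 10 arrays (log axis), for the 102 single-gene and 110 several-symbol probe sets of ribosomal protein genes. Of these, 45 of 102 and 50 of 110 were called higher and none lower; the highest intensity includes the activated arrays, so the position along the axis depends in part on the difference.

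Not all ribosomal proteins carry an Rpl or Rps number. Rpsa, the laminin receptor precursor of the small subunit, read 7346, 2047 and 6572 on the quiescent and 16536, 18219 and 18804 on the activated arrays (1.94 ± 0.55; limma adjusted p = 0.104). Fau, which encodes Rps30 fused to a ubiquitin-like protein, read 2268, 944 and 2178 against 8072, 7103 and 5145 (1.98 ± 0.41; limma adjusted p = 0.031; 0.103 without activated replicate 2). Both had activated arrays above all quiescent arrays, as most of the numbered genes did.

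The other genes of the pathway were read from 3 lists. Of 21 measured genes for translation elongation and other TOP messages, 6 were called higher in activated than in quiescent cells and 0 lower, against 2.9% of all genes called higher, with a median of 1.56. Among these was Pabpc1, the poly(A)-binding protein, which read 512, 120 and 196 on the quiescent and 5598, 5224 and 5365 on the activated arrays (4.45 ± 0.58; limma adjusted p = 0.004). Npm1, nucleophosmin of the nucleolus, read 2348, 1319 and 2287 against 13061, 11980 and 11760 (2.66 ± 0.24; 7.7e-04), and the elongation factor subunit Eef1b2 read 1262, 1028 and 2244 against 5345, 5511 and 4601 (1.83 ± 0.26; 0.006). All activated arrays of these 3 genes lay above all quiescent ones. Against irradiated cells 7 of the 21 were called higher (3.41% of all genes), among them the histone chaperone gene Nap1l1 (4.72 ± 0.60; limma adjusted p = 0.003) and Tpt1, translationally controlled tumour protein (1.18 ± 0.15; 0.003). Between irradiated and quiescent cells none of the 21 was called, and 1 was higher and 1 lower at an unadjusted p under 0.05 (1.95% and 2.02% of all genes).

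The factors that complete ribosome assembly and the dedicated chaperones of ribosomal proteins gave no call among 28 measured genes in any of the comparisons. Their median was 0.95 in activated minus quiescent cells, with 4 of 28 higher at an unadjusted p under 0.05, against 8.12% of all genes. By the same measure 7 of 28 were higher in activated than in irradiated cells, against 8.87% of all genes, and 1 was higher and 1 lower in irradiated than in quiescent cells, against 1.95% and 2.02%. Of the 28, 25 reached 100 on at least 1 array. Rpf2, which brings Rpl11 and Rpl5 into the assembling large subunit, was bright and read 3315, 1505 and 2500 on the quiescent and 4442, 5267 and 5000 on the activated arrays, a difference of 1.07 without a call; it is named after its values were seen. Of 24 measured genes of mTORC1 and S6 kinase signalling, which controls TOP messages, none was called between activated and quiescent cells (median -0.04). Of all genes, 2.9% were called higher and 3.12% lower in that comparison. At an unadjusted p under 0.05, 1 of the 24 was lower, as were 1453 of all 18193 genes. Against irradiated cells 1 of the 24 was called lower and 0 higher, where 3.69% of all genes were called lower. This was Sesn1, a p53 target that restrains mTORC1. It read 618, 1289, 1521 and 1087 on the irradiated and 73, 350 and 88 on the activated arrays. The difference was -2.86 ± 0.58 (limma adjusted p = 0.026, or 0.094 without activated replicate 3). Sesn1 also had the lowest difference of the 24 against unirradiated quiescent cells, at -2.55 without a call. These arrays measure the messages of the pathway, and the activity of the kinases and the translation of the messages were not measured.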

How the data were processed

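Per the labels' protocols, cDNA made from total RNA was amplified by the NuGEN Ovation Pico WTA kit, and biotinylated cRNA was hybridised. The deposited values are linear intensities, given as whole numbers for each probe set; the method from scan to intensity is not given in the sources used here. No further normalization was applied. Of 45037 probe sets, 34945 had 1 gene symbol, 932 several and 9160 none; 34741 single symbols were matched to RefSeq by Entrez identifier and 0 needed updating. For each gene the single-symbol probe set with the highest mean was kept. The log2(intensity + 16) values of the 10 arrays were fitted in limma 3.58.1 (R 4.3.3) with 1 mean per group and no block, followed by eBayes and two-sided tests, adjusted over 18193 genes. The number of arrays limits the precision, and 7 residual degrees of freedom are shared by all comparisons. The procedure was tested on simulated data.

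The members and lists were chosen with earlier results of these data known. The rule for named genes took, per comparison, up to 6 called members with the largest difference in each direction and separated arrays, members running against the family median by more than 1, a fixed set by role (33 genes, of which 23 had a single-symbol probe set), ribosomal proteins outside the symbol rule, and up to 3 called genes per pathway list; other members named as examples were chosen after their values were seen. Alternatives covered the pseudocount (64, 4), quantile and 75th percentile scaling, leaving out the dimmest 50% of genes, the choice of probe sets, a replicate block, fits of only the groups compared, trended robust moderation and leaving out each array.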

Additional observations from a re-analysis of the deposited data

Results flagged for a closer look

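In irradiated quiescent cells, replicate 2 gave an intensity of 109 for Rps27 while the other 3 arrays gave 5, so that 1 array lay far from the rest of its group. Rps4l, a transcribed pseudogene, gave 446 on irradiated replicate 1 and 9 to 22 on the other irradiated arrays. Chance flags about 1 in 20 groups of this size; such a far array was found for 3 of the 49 ribosomal protein genes (6.12%) and for 19.1% of all genes.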

How the results depend on the processing

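Of 252 summary values (12 results under 21 settings), 226 stayed within the limits set for them (counts within 1.5 times, medians within the SD of 0.26 between arrays). The 226 include member counts that were 0 under every setting: those called lower in each comparison, and those called higher after irradiation. The limit for medians is also wide beside the irradiated minus quiescent median of 0.28, whose fall to 0.02 counted as within it. The 63 median differences ranged from 1.45 to 1.87 for activated minus quiescent, from 0.02 (without quiescent replicate 2) to 0.44 for irradiated minus quiescent, against 0.28 as reported, and from 1.16 to 1.36 for activated minus irradiated cells; no scaling moved the median of all genes by more than 0.032. Ribosomal protein genes called higher in activated than in quiescent cells numbered 9 with the replicate block and 9 with only the 2 groups fitted, 40 with probe sets shared with pseudogenes counted (73 genes, chosen after seeing the data), and 15 to 24 without 1 array. Against irradiated cells they numbered 20 as reported, 13 of 43 tested without the dimmest 50% of genes, and 7 with the block. They numbered 25 with only the 2 groups fitted, 38 with shared probe sets and 11 to 25 without 1 array. Fitting only the 2 groups thus lowered the count in the first comparison and raised it in this one. Over all genes, deviations of same-numbered arrays had correlations from -0.031 to 0.024. Over the core subunit genes these ran from -0.158 to 0.474, and those of differently numbered arrays from -0.592 to 0.383. Whether same-numbered samples were prepared together was not tested. With the block the median activated minus quiescent difference was 1.73, against 1.64 as reported, so the fall in calls came without a smaller median. Over all genes, the calls fell from 1095 to 459 with the block and to 694 with only the 2 groups for activated against quiescent, and from 1292 to 710 with the block against irradiated cells. For irradiated against quiescent cells the 2 genes called became 1 with a pseudocount of 4, with quantile normalization and with trended robust moderation, 0 with the block and with only the 2 groups, and 0 to 46 without 1 array. Without probe sets ending in _s_at or _x_at, Rps24 and Rps9 were read by dim probe sets and turned to -0.19 and -0.15 against quiescent cells, and Rps9 to -0.073 against irradiated cells; with shared probe sets Rps25 turned to 1.71 against irradiated cells. Other causes were not tested. Of the 25 genes called against quiescent cells, 13 kept their call whichever array was left out, and of the 20 against irradiated cells, 11 did. Members at the lower limit of the array have no measured difference.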
